A study of Mus musculus with 9 samples.

Results

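The 10 platelet genes followed were the glycoproteins Gp5, Gp9 and Gp6, the integrin chains Itga2b and Itgb3, the alpha granule chemokines Ppbp and Pf4, and Treml1, F2rl2 and Alox12. They were picked by symbol from the array's gene annotation, with the brightest probe set over the 9 arrays standing for a gene. Of the 10, 9 were measured among 19938 genes, each by 1 probe set, and Gp6, the platelet collagen receptor, was not analysed here. The short array probes that read 1 transcript are together its probe set.

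Platelets are cell fragments shed by megakaryocytes, large marrow cells that arise from the same progenitors as red cells. Early in this course a cell makes the transcription factors GATA1, GATA2, TAL1 and GFI1B and puts the integrin chain CD41 (Itga2b) on its surface. Later it fills alpha granules with chemokines and builds the adhesion complex of glycoproteins Ib, IX and V and the tubulin coils from which platelets form.

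The study compared femur marrow of C57BL6 mice in 3 groups of 3 arrays. Whole marrow came from 3 wild type mice, 1 mouse on each array. Lineage-negative marrow came from 9 other wild type mice, pooled by 3, after a magnetic antibody kit had removed cells that bear mature blood cell markers. The leukemias came from the marrow of 3 mice transgenic for ERG, an ETS family transcription factor of blood stem cells, 1 mouse on each array, collected once a myeloid leukemia showed. The labels mention no lineage depletion for them. The study describes 3 leukemic mice, and 2 of the leukemia titles differ by a final digit only. The labels name neither the promoter that drives the transgene nor the species of the ERG sequence, nor the kit's antibodies, nor the animals' ages. The 3 lineage-negative arrays are pools, which average over mice. Leukemias are numbered in the order of their records, and their numbers pair them with nothing.

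The promoters of the glycoprotein pair Gp5 and Gp9 and of the chemokine pair Ppbp and Pf4 are shown because the members of each pair moved apart in the leukemias. They run from 250 bases before to 50 bases after the transcript start, are taken from RefSeq on GRCm38.p6, and are written 5′ to 3′ on the gene's own strand. Capitals mark GATAA, the core letters that GATA factors bind, or TTATC, the same letters on the other strand. Gp5 lies at chr16:30310732-30311031 on the minus strand, Gp9 at chr6:87777820-87778119 on the plus strand, Ppbp at chr5:90768268-90768567 and Pf4 at chr5:90772185-90772484, both on the plus strand.
Gp5: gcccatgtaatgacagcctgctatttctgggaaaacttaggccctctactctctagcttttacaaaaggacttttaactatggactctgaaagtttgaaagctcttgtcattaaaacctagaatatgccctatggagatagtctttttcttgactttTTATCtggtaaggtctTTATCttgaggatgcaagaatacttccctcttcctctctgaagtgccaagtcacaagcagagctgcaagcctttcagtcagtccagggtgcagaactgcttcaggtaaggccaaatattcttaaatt
Gp9: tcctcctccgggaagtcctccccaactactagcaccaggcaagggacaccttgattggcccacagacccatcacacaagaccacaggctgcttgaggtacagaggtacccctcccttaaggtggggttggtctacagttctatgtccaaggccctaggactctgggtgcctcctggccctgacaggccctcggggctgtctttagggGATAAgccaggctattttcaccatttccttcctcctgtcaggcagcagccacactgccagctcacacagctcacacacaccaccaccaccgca
Ppbp: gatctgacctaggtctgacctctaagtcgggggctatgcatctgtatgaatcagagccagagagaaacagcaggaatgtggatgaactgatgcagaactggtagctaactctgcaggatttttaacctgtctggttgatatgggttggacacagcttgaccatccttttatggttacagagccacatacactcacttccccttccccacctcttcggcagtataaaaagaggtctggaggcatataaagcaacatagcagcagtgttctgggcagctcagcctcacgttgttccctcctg
Pf4: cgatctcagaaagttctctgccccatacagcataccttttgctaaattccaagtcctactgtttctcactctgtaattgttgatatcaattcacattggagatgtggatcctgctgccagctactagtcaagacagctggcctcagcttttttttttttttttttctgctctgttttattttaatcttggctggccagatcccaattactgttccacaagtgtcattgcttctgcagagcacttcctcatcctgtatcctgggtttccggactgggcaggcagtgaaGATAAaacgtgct
In Gp5 the motif stands on the reverse strand, beginning 93 and 77 bases before the start. It begins 43 bases before the start in Gp9 and at base 38 of the transcript in Pf4, and the Ppbp window holds none. The windows of 8 measured members were in the table, and 4 of these 8 held GATAA on either strand (the other is F2rl2), against 25.4% of 32851 promoters of the same length. GGAAG, core letters of ETS sites, stood in 8 of 8 on either strand, against 71.4% of all. In these windows no match of one motif overlapped a match of the other. Itgb3 had no entry.

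Array medians of intensity ran from 32.3 to 34.4. The correlation over genes was 0.971 to 0.995 within groups and 0.881 to 0.962 between them. The labels could be set against marker genes. Summed intensity of 12 neutrophil genes was 39283 to 45841 in whole marrow, 682 to 2107 in lineage-negative marrow and 14193 to 23225 in the leukemias, and that of 9 B cell genes was 1260 to 5397, 328 to 494 and 383 to 568. Both lists were lower after lineage depletion, on every array. The median of all probe sets, 5.06 on the log2 scale, serves here as a mark of background. The group means of the 9 genes lay above it, except that of Alox12 in the leukemias.

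Mean levels of 8 of the 9 platelet genes were highest in lineage-negative marrow, and that of Gp5 in the leukemias, where the genes parted from one another. Against whole marrow, 8 of the 9 were higher in lineage-negative marrow and none was lower (limma, adjusted p under 0.05), where 21.7% of all genes were called higher and 13% lower. The arrays of these 2 groups did not overlap for any of the 9, against 26.6% of all genes that were higher in this way and 23.4% that were lower. In the leukemias 1 gene was higher than in whole marrow, Gp5, and 3 were lower, Gp9, Itgb3 and Ppbp, where 14.6% of all genes were called higher and 9.93% lower. All leukemia arrays lay above all whole marrow arrays for 2 of the 9, Gp5 and Itga2b, and below them for 4, with 19.4% and 17.7% of all genes doing so. Against lineage-negative marrow none of the 9 was called higher in the leukemias (0 also at an unadjusted p under 0.05) and 4 were lower, Gp9, Itgb3, Ppbp and Alox12, where 2.95% and 5.74% of all genes were called. Leaving out 1 lineage-negative array took these calls down, from 589 to between 268 and 334 genes higher and from 1144 to between 490 and 720 lower, and without leukemia 3 the lower were 607. Non-overlapping arrays were found for 0 of 9 higher and 5 of 9 lower, against 11.6% and 16.3% of all genes. Each pair of these comparisons shares a group, so they are not independent of one another. In marrow, which mixes cell types, fewer cells of a type and less RNA per cell cannot be told apart.

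**Figure D1:**
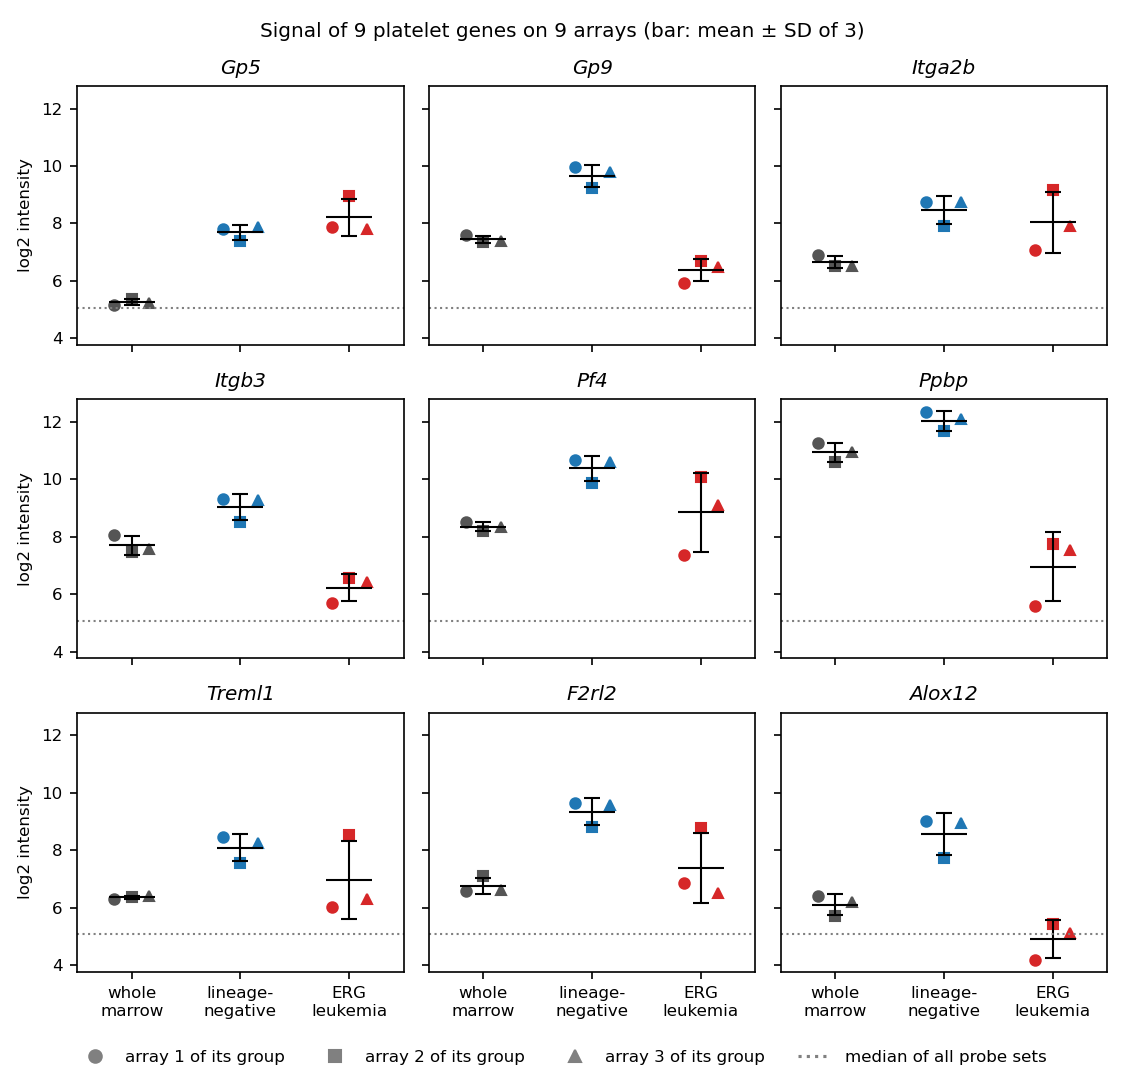
Log2 intensity of the 9 measured platelet genes on each of the 9 arrays, coloured by group, with the median of all probe sets as a line. Lineage-negative arrays stand above whole marrow arrays for every gene. The leukemias stand above whole marrow for Gp5 and Itga2b and below it for Gp9, Itgb3, Ppbp and Alox12.

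Gp5 and Gp9 are subunits of the receptor by which platelets catch von Willebrand factor on damaged vessel walls. Gp5 measured 5.16, 5.36 and 5.24 (log2 intensity) on the whole marrow arrays, 7.79, 7.40 and 7.88 on the lineage-negative arrays and 7.86, 8.94 and 7.82 on the leukemia arrays. It was near the background mark in whole marrow and high on all other arrays, and the leukemia and lineage-negative arrays overlapped. It was 7.72-fold higher in the leukemias than in whole marrow (log2 difference 2.95 ± 0.28 SE, adjusted p = 0.000553, limma) and 5.4-fold higher in lineage-negative than in whole marrow (2.43 ± 0.28, adjusted p = 0.000288). Because whole marrow lay near background, these folds may understate the change. Leukemias and lineage-negative marrow differed by 0.52 (95% interval -0.12 to 1.15, adjusted p = 0.332).

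Gp9 went the other way in the leukemias. It measured 7.59, 7.36 and 7.38 in whole marrow, 9.95, 9.23 and 9.80 in lineage-negative marrow and 5.94, 6.70 and 6.49 in the leukemias. The 3 groups did not overlap, with the leukemias lowest. It fell 2.1-fold from whole marrow to the leukemias (-1.07 ± 0.23, adjusted p = 0.0101) and was 9.74-fold lower than in lineage-negative marrow (-3.28 ± 0.23, adjusted p = 0.00037). Lineage-negative marrow held 4.65-fold more than whole marrow (2.22 ± 0.23, adjusted p = 0.00018). Glycoprotein Ib, whose chains Gp1ba and Gp1bb complete the receptor, was not analysed here.

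Itga2b and Itgb3 are the chains of the fibrinogen receptor, integrin αIIbβ3. Itga2b is the chain that marks megakaryocytes and is also found on early blood progenitors, while Itgb3 pairs in addition with the αV chain on other cells, osteoclasts among them. Itga2b measured 6.90, 6.52 and 6.53 in whole marrow, 8.76, 7.92 and 8.76 in lineage-negative marrow and 7.06, 9.15 and 7.90 in the leukemias. All leukemias stood above all whole marrow arrays, and they ran from near whole marrow to above lineage-negative marrow. The difference to whole marrow, 1.38 ± 0.47, did not pass the threshold (95% interval 0.32 to 2.45, adjusted p = 0.0619), and that to lineage-negative marrow was -0.44 (-1.50 to 0.62, adjusted p = 0.683). Without leukemia 1 it was called higher than in whole marrow, by 1.87. Lineage-negative marrow was 3.55-fold above whole marrow (1.83 ± 0.47, adjusted p = 0.0146). This last call was lost without lineage-negative pool 1 or pool 3, where the difference was 1.69 in each case.

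Itgb3 measured 8.07, 7.46 and 7.56 in whole marrow, 9.33, 8.50 and 9.27 in lineage-negative marrow and 5.70, 6.58 and 6.41 in the leukemias. The 3 groups stood apart, and every leukemia was below every wild type array. It fell 2.76-fold against whole marrow (-1.47 ± 0.30, adjusted p = 0.00813) and 6.97-fold against lineage-negative marrow (-2.80 ± 0.30, adjusted p = 0.00159), while lineage-negative marrow was 2.52-fold above whole marrow (1.34 ± 0.30, adjusted p = 0.0075). Since osteoclasts also carry this chain, 9 osteoclast genes were looked at, of which 6 had means under the background mark in whole marrow and in the leukemias, among them Ctsk, Calcr, Ocstamp and Dcstamp. Their summed intensity, 2519 to 3445 in whole marrow, 390 to 495 in lineage-negative marrow and 795 to 1473 in the leukemias, was in large part that of Mmp9, also a neutrophil granule gene, at means of 2282, 33 and 579. In the leukemias Mmp9 and Nfatc1 were called below whole marrow, and Mmp9 above lineage-negative marrow. Acp5 was the 1 gene of the 9 with a leukemia mean above that of whole marrow, 8.07 against 7.46, and was not called. It measured 8.65, 6.44 and 9.12 in leukemias 1, 2 and 3. The part of osteoclasts in the Itgb3 values was not tested.

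Ppbp and Pf4 encode CXC chemokines of alpha granules, which platelets release in large amounts. They are neighbours on chromosome 5, where the protein-coding order is Cxcl5, Ppbp, Pf4, Cxcl3. Ppbp measured 11.26, 10.60 and 10.97 in whole marrow, 12.34, 11.67 and 12.10 in lineage-negative marrow and 5.58, 7.74 and 7.55 in the leukemias. Mean intensity was 1968, 4197 and 124, and no leukemia reached any wild type array. Ppbp fell 15.8-fold against whole marrow (-3.99 ± 0.51, adjusted p = 0.00138) and 33.8-fold against lineage-negative marrow (-5.08 ± 0.51, adjusted p = 0.00127), the largest change of the 9 genes in both comparisons.

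Between the wild type groups, Ppbp was the single gene that missed the threshold, at 1.09 ± 0.51 (95% interval -0.07 to 2.26, adjusted p = 0.139), although its arrays did not overlap. The fit shares 1 spread per gene over the 3 groups, and the SD of Ppbp was 1.20 in the leukemias against 0.33 and 0.34 in the wild type groups. Fitted on the 6 wild type arrays alone, or without leukemia 1, it was called (adjusted p = 0.00641 and 0.00489, limma). With the replicate number as a block, the adjusted p was 0.00173, but the groups came from different mice.

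Pf4 measured 8.50, 8.20 and 8.35 in whole marrow, 10.67, 9.88 and 10.60 in lineage-negative marrow and 7.37, 10.08 and 9.12 in the leukemias. Leukemia 1 lay below whole marrow, leukemia 3 above it, and leukemia 2 within the range of lineage-negative marrow. The difference of 0.50 ± 0.57 to whole marrow did not pass (95% interval -0.80 to 1.81, adjusted p = 0.609), nor did that of -1.53 ± 0.57 to lineage-negative marrow (-2.83 to -0.22, adjusted p = 0.152). Lineage-negative marrow was 4.08-fold above whole marrow (2.03 ± 0.57, adjusted p = 0.0232), a call lost in 5 of the 9 fits that left out 1 array.

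Beside them, 7 other CXC chemokines were listed. Cxcl5 and Cxcl3, the nearest neighbours, measured 4.23 to 4.79 and 5.04 to 5.31 over the 9 arrays, at or near background, and neither was called in any comparison. Of these 7, 2 fell in the leukemias against whole marrow, Cxcl2 by -1.04 ± 0.27 (adjusted p = 0.0226) and Cxcl9 by -0.59 ± 0.11 (adjusted p = 0.00531), and 0 were higher (limma, also 0 at an unadjusted p under 0.05). Of all genes, 9.93% were called lower and 14.6% higher. The Cxcl2 call was lost with the 2 groups alone and without array 1 or 2 of whole marrow. For 3 of the 7, lineage-negative marrow was below whole marrow, Cxcl2 (-1.73 ± 0.27, adjusted p = 0.00122), Cxcl9 (-0.64 ± 0.11, adjusted p = 0.00183) and Cxcl10 (-0.62 ± 0.15, adjusted p = 0.013). Here 13% of all genes were called lower. The means of Cxcl9 and Cxcl10 lay under the background mark in all 3 groups, at most 5.0 and 4.98, in whole marrow. That of Cxcl2 lay under it in lineage-negative marrow, at 4.38. These differences are thus limited by background.

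Treml1 is a receptor kept in alpha granules and brought to the surface of activated platelets. It measured 6.31, 6.36 and 6.40 in whole marrow, 8.46, 7.56 and 8.25 in lineage-negative marrow and 6.03, 8.52 and 6.30 in the leukemias. Leukemia 2 stood above every lineage-negative array, and the other leukemias lay below every whole marrow array. It was 3.33-fold higher in lineage-negative than in whole marrow (1.74 ± 0.57, adjusted p = 0.0435). That call was lost after cyclic loess (1.46), with a pseudocount of 16 (1.56) and without any 1 of the 6 wild type arrays (1.55 to 2.00). On the 6 wild type arrays alone the adjusted p was 0.000881. The leukemias differed by 0.60 ± 0.57 from whole marrow (adjusted p = 0.534) and by -1.14 ± 0.57 from lineage-negative marrow (adjusted p = 0.29).

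F2rl2 encodes PAR3, a thrombin receptor that in mouse platelets helps thrombin to cut PAR4. It measured 6.56, 7.09 and 6.60 in whole marrow, 9.65, 8.80 and 9.57 in lineage-negative marrow and 6.84, 8.77 and 6.51 in the leukemias. Again leukemia 2 stood near lineage-negative marrow and the others within or below the range of whole marrow. Lineage-negative marrow was 6.02-fold above whole marrow (2.59 ± 0.53, adjusted p = 0.00499). All leukemias were below all lineage-negative arrays, by -1.97 ± 0.53 (adjusted p = 0.0556, not past the threshold). The difference to whole marrow was 0.62 ± 0.53 (adjusted p = 0.475).

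Alox12 encodes the platelet 12-lipoxygenase, which oxidises arachidonic acid. It measured 6.41, 5.71 and 6.18 in whole marrow, 9.03, 7.72 and 8.95 in lineage-negative marrow and 4.17, 5.43 and 5.12 in the leukemias. The groups did not overlap, and the leukemias lay around the background mark. Against lineage-negative marrow it was lower (-3.66 ± 0.42, 95% interval -4.61 to -2.72, adjusted p = 0.00204). With the leukemia mean, which lay under the background mark, set to that mark, the fold between the means was 11.4. Against whole marrow the difference of -1.20 ± 0.42 missed the threshold (95% interval -2.14 to -0.25, adjusted p = 0.0695). It was called lower after centring on the 75th percentile (-1.28) and with dim genes left out (-1.20). Lineage-negative marrow was 5.53-fold above whole marrow (2.47 ± 0.42, adjusted p = 0.00189).

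**Figure D2:**
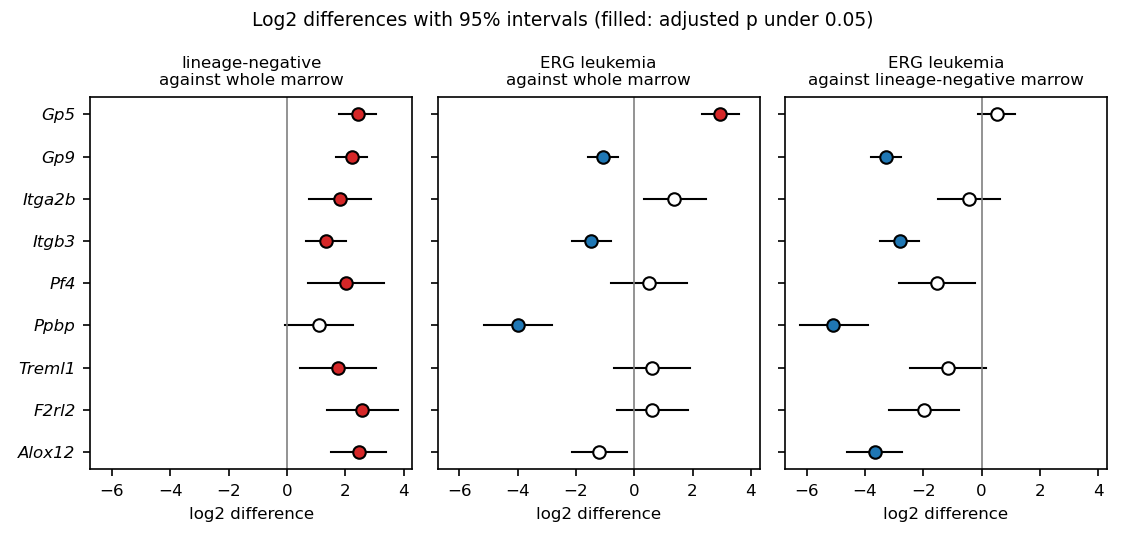
Log2 difference with its 95% interval for each of the 9 genes in the 3 comparisons, with filled points for genes past the adjusted p threshold. Lineage-negative against whole marrow puts all 9 genes above 0, from 1.09 to 2.59. The leukemias against whole marrow spread from -3.99 for Ppbp to 2.95 for Gp5.

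Genes whose proteins work together were set against each other within each array, which removes any scaling between arrays. The 3 pairs were chosen after their values were seen. A difference between 2 probe sets has no meaning as a level, so its shift between groups is what is read. Gp5 minus Gp9 was -2.43, -2.00 and -2.13 in whole marrow, -2.16, -1.83 and -1.92 in lineage-negative marrow and 1.91, 2.24 and 1.33 in the leukemias. The wild type groups overlapped, and the leukemias stood apart by 4.02 ± 0.29 from whole marrow and 3.80 ± 0.28 from lineage-negative marrow. Over the alternative fits the shift from whole marrow ran from 3.46 to 4.26. Gp5 was near the background mark in whole marrow, which limits this shift and the comparison of the wild type groups. Itga2b minus Itgb3 was -1.17, -0.94 and -1.03 in whole marrow, -0.58, -0.58 and -0.51 in lineage-negative marrow and 1.36, 2.56 and 1.49 in the leukemias. That is a shift of 2.85 ± 0.39 against whole and 2.36 ± 0.38 against lineage-negative marrow, with no overlap.

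Pf4 minus Ppbp was -2.76, -2.39 and -2.62 in whole marrow, -1.67, -1.79 and -1.50 in lineage-negative marrow and 1.79, 2.33 and 1.57 in the leukemias. It shifted by 4.49 ± 0.25 against whole marrow, a 22.5-fold change in the ratio, and by 3.55 ± 0.24 against lineage-negative marrow. The shifts between the wild type groups were 0.22 ± 0.16 for Gp5 minus Gp9, 0.49 ± 0.07 for the integrin chains and 0.94 ± 0.14 for the chemokines. The exact two-sided permutation p was 0.1, the smallest that 3 arrays against 3 can give, for all 6 shifts of the leukemias and equally for the wild type shifts of the integrin and chemokine pairs. It was 0.3 for Gp5 minus Gp9 between the wild type groups. Since the pairs were picked for moving apart, these p-values support nothing, and the sizes are a description. Over the 3 leukemias Pf4 ranged from 7.37 to 10.08 and Ppbp from 5.58 to 7.74, while their within-array difference ranged from 1.57 to 2.33.

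**Figure D3:**
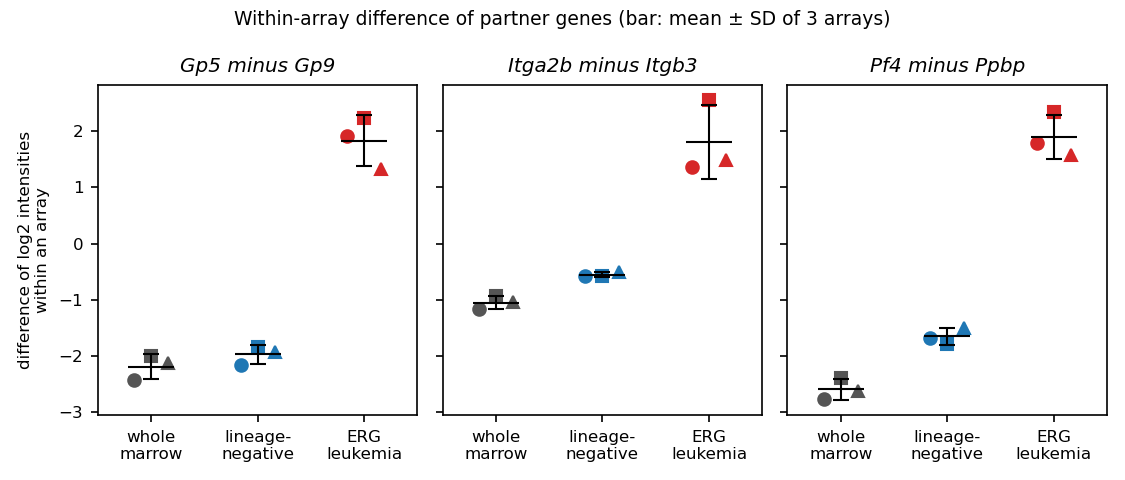
Within-array log2 difference of Gp5 minus Gp9, Itga2b minus Itgb3 and Pf4 minus Ppbp on each of the 9 arrays. The wild type arrays run from -2.76 to -0.51 and the leukemias from 1.33 to 2.56. Only the shift between groups is read, since the zero of such a difference has no meaning.

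The 3 leukemias were unlike each other in these genes. Leukemia 2 was the highest of the 3 in 9 of 9 genes, leukemia 1 the lowest in 7 and leukemia 3 in the other 2. The SD over the leukemias was 1.37 for Pf4, 1.36 for Treml1, 1.22 for F2rl2, 1.20 for Ppbp and 1.05 for Itga2b, each above the SD of at least 99.3% of all genes in that group, where the median was 0.127. Gp9 and Itgb3 spread less, at 0.39 and 0.47, still above the SD of 89.8% and 92.9% of all genes. Summed intensity of the 9 genes was 890, 3397 and 1588 in leukemias 1, 2 and 3. In the same order, that of 13 erythroid genes was 6953, 11085 and 10106, that of 12 macrophage genes 3347, 1588 and 3301, and that of 12 neutrophil genes 23225, 14193 and 19978. Leukemia 2 was thus highest in platelet and erythroid genes and lowest in macrophage and neutrophil genes, and the part of this mix in the platelet values was not tested. Without leukemia 2, Pf4, Treml1 and F2rl2 were also called lower than in lineage-negative marrow, by -2.14, -1.92 and -2.66, which raised the count from 4 to 7 of 9. Without leukemia 1, Itga2b and Pf4 were also called higher than in whole marrow, by 1.87 and 1.25, which raised that count from 1 to 3.

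Lineage-negative pool 2 was the lowest of its group in 9 of 9 genes, and pool 1 the highest in 7. The SDs of the 9 genes over the pools were likewise high within that group, where the median was 0.101. They lay above the SD of 89.2% (Gp5) to 99.7% (Alox12) of all genes. Summed intensity of the 9 genes was 10777, 6416 and 9668 in pools 1, 2 and 3. Pool 2 was also lowest in neutrophil genes, at 682 against 2107 and 1498, and in mast cell and basophil genes, at 4320 against 7496 and 7371, and highest in erythroid genes, at 9007 against 6449 and 7071. Whether this difference in makeup bears on the platelet genes was not tested. Without lineage-negative pool 1, or without pool 3, 5 of the 9 genes were called higher than in whole marrow.

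Early megakaryocyte genes and late platelet genes were next set against whole marrow, where 14.6% of all genes were called higher in the leukemias and 9.93% lower. Of 18 listed early genes 16 were measured. Of these 7 were higher and 3 lower than in whole marrow, with a median of 0.76 against -0.02 for all genes. The median was 0.17 without Itga2b, the 1 early gene that is among the 9. Slamf1, a receptor of stem and progenitor cells, rose by 3.17 ± 0.37 (adjusted p = 0.00106). Gata2 rose by 3.13 ± 0.32 (adjusted p = 0.000696), F2r, the thrombin receptor PAR1, by 2.47 ± 0.34 (adjusted p = 0.00168), and Gata1, Zfpm1, its cofactor, Tal1 and Gfi1b by 2.34, 1.73, 1.60 and 1.36. Erythroid genes, 10 of 13, were also called higher than in whole marrow, with a median of 1.66 for the 13. The part of erythroid cells in these early gene values was not tested. Ets1 fell by -2.10 ± 0.30 (adjusted p = 0.00202), and Fli1 and Mef2c by -1.69 and -1.17, the Mef2c call being lost without whole marrow array 1 or 3 or leukemia 2 or 3. Fli1, an ETS factor of megakaryocytes, thus fell against whole marrow where the GATA factors rose. Fli1 and Ets1 were also lower in lineage-negative than in whole marrow, by -0.79 (not called) and -1.77 (called). The leukemias differed from lineage-negative marrow by -0.89 for Fli1 and -0.32 for Ets1. Fli1 measured 8.20, 6.73 and 8.22 in leukemias 1, 2 and 3. The number of early genes called lower was 5 in place of 3 under either other scaling and without lineage-negative pool 2.

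Of the 66 listed late genes 60 were measured. In the leukemias 11 were higher and 16 lower than in whole marrow, with a median of -0.27. The share that rose, 18.3%, was near that of all genes (without the 8 members among them, 10 and 13 of 52, also -0.27). After cyclic loess 7 were higher, and without whole marrow array 1, 10 were lower, as were 1248 in place of 1980 of all genes. Whether the early and late lists differ was not tested. By role, 3 of 17 measured surface genes were higher and 6 lower than in whole marrow. The same counts were 2 and 4 of 16 for alpha granule genes, 2 and 4 of 15 for platelet formation and 4 and 2 of 12 for enzymes and secretion. The granule traffic genes Rab38 and Rab27b rose by 1.79 ± 0.25 (adjusted p = 0.00183) and 1.75 ± 0.24 (adjusted p = 0.00174). Cd9, a tetraspanin of the platelet surface, fell by -1.74 ± 0.26 (adjusted p = 0.00248), coagulation factor V, F5, by -1.75 ± 0.27 (adjusted p = 0.00258), and the myosin light chain Myl9 by -1.45 ± 0.29 (adjusted p = 0.00795). Cd9 and F5 were also called lower in lineage-negative than in whole marrow, by -0.78 and -1.02, while Myl9 was higher there by 2.16. With 1 array left out, that Cd9 call was lost in 6 fits and that F5 call in 2.

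Set against lineage-negative marrow, late genes were more often lower than higher. Of 60, 3 were higher and 22 lower, with a median of -0.40, where 2.95% and 5.74% of all genes were called. The 3 became 1 without any 1 lineage-negative array and 5 after 75th percentile centring. Of the 52 that are no members, 18 were lower. Surface genes gave 10 lower and 0 higher of 17 (limma, also 0 higher at an unadjusted p under 0.05), with a median of -1.14. Myl9 fell by -3.62 ± 0.29 (adjusted p = 0.000566), Tubb1, the platelet tubulin, by -3.02 ± 0.46 (adjusted p = 0.00661), Itga2, a collagen receptor chain, by -2.46 ± 0.26 (adjusted p = 0.00155) and Vwf by -1.87 ± 0.29 (adjusted p = 0.00732). Nfe2, a transcription factor needed for platelet release, was higher by 0.82 ± 0.16 (adjusted p = 0.0164). Rab27b and Rab38, at 0.07 and -0.06, were not called.

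Of the 16 early genes 1 was higher, Lyl1 by 0.44 ± 0.09 (adjusted p = 0.0171), and 4 were lower than in lineage-negative marrow, with a median of -0.31. The Lyl1 call was lost without any 1 lineage-negative array, which left 0 early genes higher in these fits, and without leukemia 3. Kit, the stem cell factor receptor, fell by -2.11 ± 0.12 (adjusted p = 0.000133), Meis1 by -2.61 ± 0.24 (adjusted p = 0.001) and Mef2c by -1.26 ± 0.30 (adjusted p = 0.0377). The Mef2c call was lost after cyclic loess, with the 2 groups alone, with a pseudocount of 16 and in 5 of the 9 fits that left out 1 array (whole marrow 1, pools 1 and 3, leukemias 2 and 3). Gata1 at -0.30, Gata2 at 0.71, F2r at 0.27 and Slamf1 at 1.30 did not pass. Slamf1 was called higher after 75th percentile centring (1.34) and with bright genes only (1.30), with 2 early genes higher in each. Gata2 was called higher without leukemia 3, at 1.09. In lineage-negative against whole marrow, 11 of 16 early genes were higher and 2 lower, with a median of 1.78, and 30 of 60 late genes were higher and 11 lower, with a median of 0.49. The 2 early genes became 1 in 6 of the 9 fits without 1 array, and the 11 late genes became 6 without whole marrow array 1 and 7 without whole marrow array 2 or pool 2. Of all genes, 21.7% were higher and 13% lower. Among the genes higher there were Gata1 at 2.64, Gata2 at 2.43, Myl9 at 2.16, Tubb1 at 2.12 and Vwf at 1.99. Late genes lower in the same comparison included Nbeal2 at -1.39, Stx11 at -1.39 and Flna at -1.28.

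**Figure D4:**
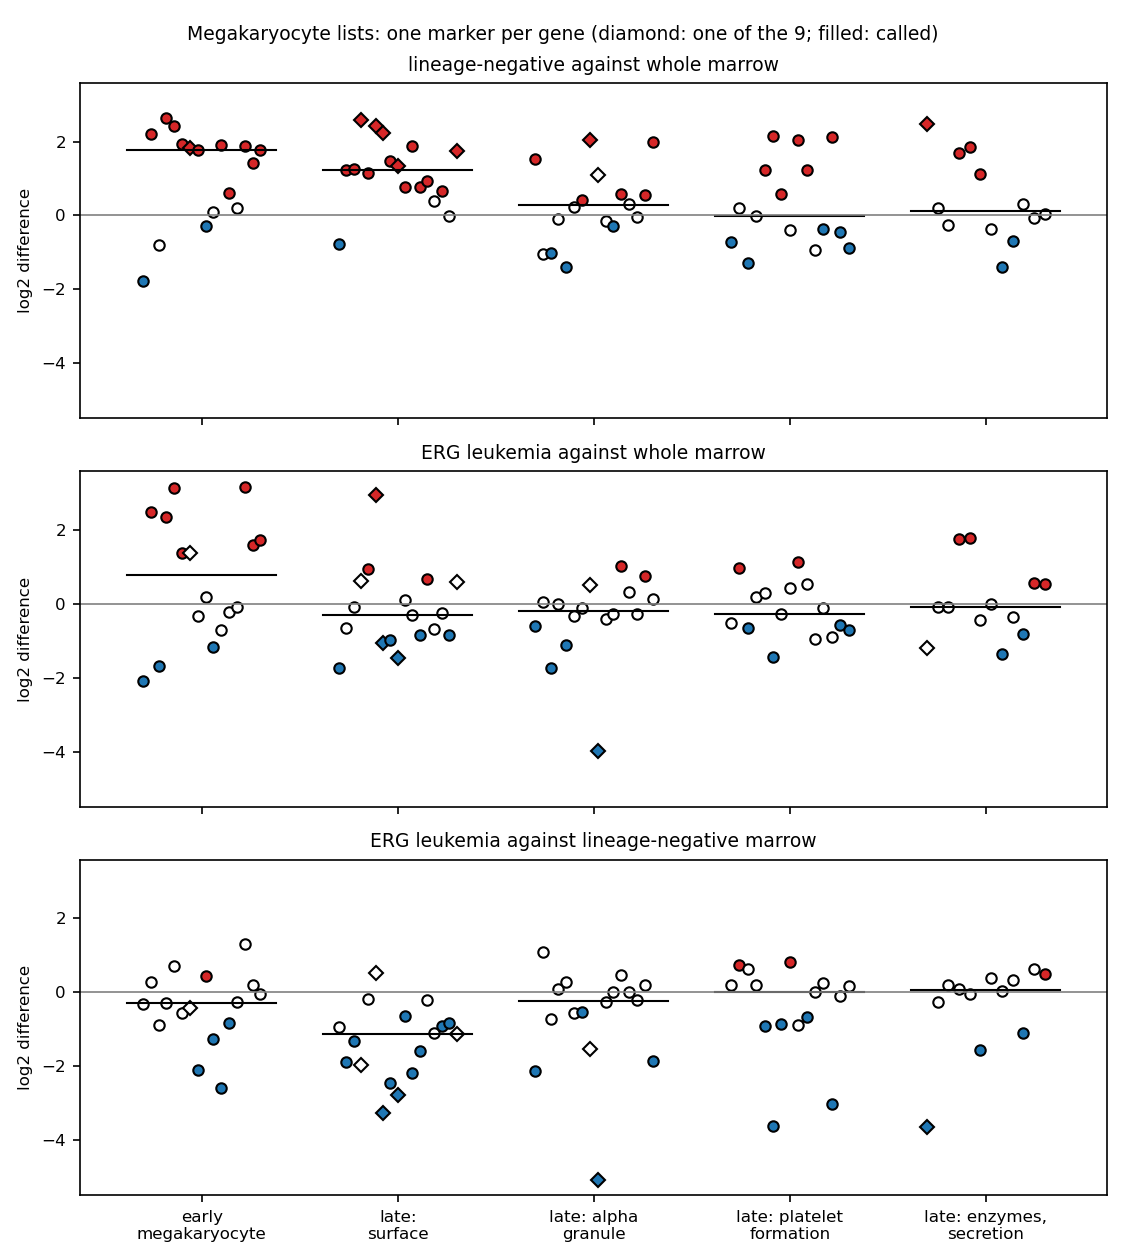
Log2 difference of each measured gene of the early megakaryocyte list and of the late lists by role. From the top, the panels are lineage-negative against whole marrow, the leukemias against whole marrow and the leukemias against lineage-negative marrow. Diamonds are the 9 members, filled symbols are genes past the threshold and lines are list medians. Against lineage-negative marrow the median of the late surface genes is -1.14 and that of the early genes -0.31.

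Signalling proteins downstream of platelet receptors, shared with other blood cells, were listed as a further group, of which 12 of 14 were measured. Of all genes, 14.6% were called higher and 9.93% lower in the leukemias against whole marrow, and 2.95% and 5.74% against lineage-negative marrow. In the leukemias 2 were higher than in whole marrow, Lat by 2.00 ± 0.35 (adjusted p = 0.00429) and Prkcq by 1.64 ± 0.34 (adjusted p = 0.00937), and 4 were lower, among them the kinase Syk by -1.76 ± 0.37 (adjusted p = 0.00931). The share higher, 16.7%, was near that of all genes. Against lineage-negative marrow 1 was higher, Fgr by 2.63, and 1 lower, Dapp1 by -0.58, the Dapp1 call being lost in 7 of the 9 fits without 1 array. In lineage-negative against whole marrow 3 were higher and 8 lower, Syk by -1.89, where 21.7% and 13% of all genes were called. Erythroid genes gave 10 higher and 0 lower of 13 against whole marrow (limma, also 0 lower at an unadjusted p under 0.05), with a median of 1.66, and 0 called against lineage-negative marrow (limma, 2 higher at an unadjusted p under 0.05). Mast cell and basophil genes gave 5 lower of 10 against whole and 6 against lineage-negative marrow. Endothelial genes, some shared with megakaryocytes, gave 1 lower of 8 against whole marrow (12.5%, near the share of all genes) and 2 against lineage-negative marrow. T cell genes gave 5 lower of 7 against whole marrow and 0 called against lineage-negative marrow (limma, also 0 at an unadjusted p under 0.05). Macrophage genes gave 4 lower of 12 against whole marrow, among them Vcam1, Slc40a1 and Mrc1, and 0 higher (limma, also 0 higher at an unadjusted p under 0.05). Their median was -0.03, with 6 of the 12 above 0 and 6 below. Mean C1qc, for one, was 7.65 in the leukemias and 6.55 in whole marrow. Against lineage-negative marrow 7 macrophage genes were higher.

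The genes whose pattern was most like that of each member were sought by Pearson correlation over the 9 arrays. With 3 groups, such a value mostly follows the group means. For Gp5 they were Nomo1 (r = 0.988), Srxn1 (0.984) and F2r (0.983). For Gp9 they were Trpc6 (0.997), Ehd3 (0.996) and Fhl1 (0.995), and for Alox12 they were Trpc6 (0.992), Gp9 (0.991) and Fhl1 (0.990). Itgb3 was nearest Lrrn4 (0.986), Pde5a (0.978) and Cd226 (0.977), and Ppbp nearest Als2cl (0.962), Sardh (0.952) and Gstt2 (0.951). Pf4 was nearest Mrvi1 (0.978), Dapk1 (0.974) and Lrrc32 (0.972), and Treml1 nearest Plxna4 (0.987), Dapk1 (0.960) and Eya2 (0.954). Itga2b was nearest Bahcc1 (0.968), Pard6b (0.965) and Spns2 (0.962), and F2rl2 nearest Exoc3l2 (0.966), Slc6a15 (0.954) and Myct1 (0.954).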

How the data were processed

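RNA of 9 marrow samples was hybridised to mouse Affymetrix whole-transcript arrays of 28853 probe sets. The deposited values are linear intensity values made by the authors with RMA in Partek, per the submitters' processing notes, with versions and genome build not given in the sources used here. Log2 was taken of these values, with no further scaling, filter or pseudocount. Names came from the platform annotation: 21789 probe sets had 1 symbol, 1621 had several and 5443 were unnamed, and the brightest probe set stood for a gene. Symbols were updated by Entrez identifier, and 19856 of 19938 genes were found in a RefSeq table of GRCm38.p6.

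All 9 arrays were fitted in 1 model with limma 3.58.1 in R 4.3.3 (6 residual degrees of freedom and 2.62 from the prior). The two-sided tests had Benjamini-Hochberg adjustment over all genes and a threshold of 0.05. SD and SE are on the log2 scale, and the 3 arrays a group limit the precision. An SD is that of the 3 arrays of its group. The SE of a gene's difference comes from the limma model, with 1 spread over the 3 groups. That of a shift of a gene pair comes from the SDs of the 2 groups compared. Each whole marrow or leukemia array is 1 mouse, and each lineage-negative array a pool of 3. The fit was tested on simulated data. Wild type replicate numbers do not pair samples, since the 2 groups came from different mice. Deviations of same-numbered arrays correlated at 0.31, -0.01 and -0.01, and those of differently numbered arrays at -0.20 to 0.15. With 3 arrays a group, such correlations cannot decide on pairing.

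Members and lists were chosen with earlier results of these data known. The rule named all members, up to 3 genes called highest and 3 called lowest in each list, the chemokines listed beside Ppbp and Pf4, and the 3 genes most correlated with each member. Other genes with values (Gata1, Zfpm1, Tal1, Gfi1b, Vwf, Rab27b and Rab38 beyond the rule) were chosen after their values were seen. Alternatives were 75th percentile centring, cyclic loess, the 2 groups compared alone, bright genes only, the mean of all probe sets, a trended robust prior, a pseudocount of 16, the replicate block and leaving out each array. Figures used matplotlib 3.10.9 in Python 3.11.15.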

Additional observations from a re-analysis of the deposited data

How the results depend on the processing

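The 9 genes gave 27 differences, and 441 alternative values. Of these 408 kept direction and side of the threshold, 14 newly passed it, 15 no longer passed and 4 changed sign, none of the 4 having been called. With 1 array left out, the difference to whole marrow ran from -0.11 (without leukemia 2) to 1.25 for Pf4, from -0.19 (without leukemia 2) to 1.06 for Treml1 and from -0.07 (without leukemia 2) to 1.05 for F2rl2. Against lineage-negative marrow it ran from -1.00 to 0.04 (without leukemia 1) for Itga2b, from -0.20 (without leukemia 2) to 0.57 for F2r, from -0.73 to 0.19 (without leukemia 1) for Gata1 and from -0.22 (without leukemia 2) to 0.23 for Rab27b. The Gp5 minus Gp9 shift between wild type groups was -0.08 with a pseudocount of 16. Members called higher than in whole marrow in the leukemias were 2 with bright genes only, Itga2b being added, and 1 to 3 with 1 array left out. Members called lower were 3 to 4 against whole marrow and 4 to 7 against lineage-negative marrow, and members higher in lineage-negative than in whole marrow 5 to 9. With the replicate block, 9 members were higher in lineage-negative marrow in place of 8, Ppbp being added, and no other member's call changed. F2rl2 was called lower than in lineage-negative marrow after 75th percentile centring (-1.93) and with bright genes only (-1.97). Centring on the 75th percentile moved the median of all genes by -0.10 for the leukemias against whole marrow. The causes of these moves were not tested. Genes near the median intensity, such as Gp5 in whole marrow and Alox12 in the leukemias, have folds limited by background.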
